A study of Homo sapiens with 8 samples.

Results

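The genes described here make, store and burn fatty acids: 35 genes, found in the deposited expression tables by gene symbol, of 19479 genes listed there. They fall into 10 genes of synthesis, 6 of storage, 15 of mitochondrial oxidation and 4 of the switch between glucose and fat as fuel. Expression was measured by RNA-seq of total RNA in 8 libraries of AC16, a human cell line that divides in culture and came from a fusion of adult ventricular cardiomyocytes and fibroblasts. Cells were raised to 50 mM glucose for 24 h after maintenance at 25 mM (2 libraries, called 25 to 50 mM) or left at 25 mM (2 libraries). A parallel pair of groups was raised to 50 mM for 24 h after maintenance at 5 mM (2 libraries, called 5 to 50 mM) or left at 5 mM (2 libraries). Maintenance lasted at least 3 passages, and the rise was made by adding 25 mM or 45 mM D-glucose. All groups shared the same line, DMEM with 10% fetal bovine serum and antibiotics. No library with an osmotic control was analysed here, and cultures kept at 25 mM and at 5 mM were separate stocks with a deposited table each, so that maintenance glucose and culture history cannot be told apart.

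A cell builds fatty acids in the cytosol from acetyl-CoA, elongates and desaturates them, and esterifies them to triglyceride that is kept in lipid droplets. To burn them, it attaches them to carnitine, carries them into mitochondria and shortens them by repeated oxidation, passing the electrons on through the electron transfer flavoprotein. The heart draws most of its energy from this oxidation, and high glucose is known to favour synthesis and to restrain entry into mitochondria through malonyl-CoA, the product of acetyl-CoA carboxylase, which inhibits carnitine palmitoyltransferase 1.

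Library totals ran from 21538898 to 27372851 reads, and 3 reads on a gene of 1 kb corresponded to 0.110 to 0.139 RPKM (reads per kilobase of gene, scaled to library depth). Of 12 markers of cardiomyocytes, 10 were under 1 RPKM in every library, and MYL2 and MB were at 0 in all 8. The libraries therefore do not carry the transcripts that define the labelled cell type, and AC16 is named by the line below. All 10 fibroblast markers were above 1 RPKM in every library. Their summed levels were 2950 to 3260 RPKM at 25 to 50 mM and 3050 to 3100 RPKM at 25 mM. They were 2530 to 2570 RPKM at 5 to 50 mM and 2270 to 2460 RPKM at 5 mM. COL1A1, at 963 to 1634 RPKM, was the largest part of each sum. Single markers differed in direction: at 25 mM against 5 mM, 6 were called higher and 2, FAP and PDGFRA, lower. Over all genes 17.0% were called higher and 22.1% lower. Of 6 adipocyte markers 5 were under 1 RPKM in every library, as were all 5 hepatocyte markers. In bulk RNA, fewer cells of a type and less RNA per cell cannot be told apart. The series calls its replicates technical. The p-values below therefore rest on the scatter of the libraries, which may be technical, and not on independent cultures.

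Promoter windows are shown for 5 members. SLC25A20 and PPARA stood far apart between maintenance groups in opposite directions. The start of HADHB lies 307 bases from that of its partner subunit HADHA on the opposite strand. SCD and ANGPTL4 were the members with the smallest unadjusted p after the rise from 5 mM and from 25 mM. Each window runs from 250 bases before to 50 bases after the gene's start in RefSeq, build GRCh38.p14, and is written 5′ to 3′ along the gene. The windows are chr3:48898833-48899132 on the minus strand for SLC25A20, chr22:46150276-46150575 on the plus strand for PPARA (1 of 2 windows listed for it), chr2:26244689-26244988 on the plus strand for HADHB, chr10:100346983-100347282 on the plus strand for SCD and chr19:8363905-8364204 on the plus strand for ANGPTL4. Capitals mark GC boxes (GGGCGG) and CCAAT boxes (CCAAT) on either strand.
SLC25A20: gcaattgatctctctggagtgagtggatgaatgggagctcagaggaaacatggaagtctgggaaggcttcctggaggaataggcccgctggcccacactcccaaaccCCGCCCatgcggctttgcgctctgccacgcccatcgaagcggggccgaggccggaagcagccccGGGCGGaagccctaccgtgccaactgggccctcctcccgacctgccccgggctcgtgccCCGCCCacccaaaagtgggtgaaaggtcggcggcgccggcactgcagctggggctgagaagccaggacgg
PPARA: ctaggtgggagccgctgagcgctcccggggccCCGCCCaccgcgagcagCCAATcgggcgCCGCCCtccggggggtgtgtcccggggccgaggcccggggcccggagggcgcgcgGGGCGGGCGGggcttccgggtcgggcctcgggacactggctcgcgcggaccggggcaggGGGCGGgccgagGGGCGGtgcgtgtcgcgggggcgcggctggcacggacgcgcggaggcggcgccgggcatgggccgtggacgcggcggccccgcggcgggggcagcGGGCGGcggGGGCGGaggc
HADHB: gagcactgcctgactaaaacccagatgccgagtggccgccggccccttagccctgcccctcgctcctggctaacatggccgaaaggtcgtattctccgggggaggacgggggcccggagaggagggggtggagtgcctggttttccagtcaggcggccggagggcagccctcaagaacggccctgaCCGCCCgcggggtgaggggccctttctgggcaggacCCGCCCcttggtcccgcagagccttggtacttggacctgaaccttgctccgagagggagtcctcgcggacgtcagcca
SCD: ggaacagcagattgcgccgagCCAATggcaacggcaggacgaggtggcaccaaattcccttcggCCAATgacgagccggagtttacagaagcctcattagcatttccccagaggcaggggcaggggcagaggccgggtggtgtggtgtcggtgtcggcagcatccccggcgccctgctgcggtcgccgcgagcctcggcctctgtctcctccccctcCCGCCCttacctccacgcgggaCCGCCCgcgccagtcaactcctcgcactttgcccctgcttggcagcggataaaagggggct
ANGPTL4: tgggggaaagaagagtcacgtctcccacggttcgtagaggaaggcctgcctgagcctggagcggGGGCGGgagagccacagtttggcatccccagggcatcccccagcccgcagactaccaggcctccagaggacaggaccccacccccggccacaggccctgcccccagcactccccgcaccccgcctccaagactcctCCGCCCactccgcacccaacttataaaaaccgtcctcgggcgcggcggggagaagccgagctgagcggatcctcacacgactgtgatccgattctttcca
The windows held 3 GC boxes in SLC25A20, 8 in PPARA, a pair of which overlap, and 2 each in HADHB, SCD and ANGPTL4. CCAAT boxes numbered 2 in SCD and 1 in PPARA. RefSeq windows were found for 30 of the 35 members, 42 windows in all, counting alternative starts, and not for CPT1B, DGAT1, DGAT2, ETFDH and FASN. A GC box was in 78.6% of the members' windows, against 56.3% of 22199 windows of protein-coding genes, and a CCAAT box in 33.3% against 34.7%. An E-box (CACGTG, the same on both strands) was in 7.14% of the members' windows, those of ELOVL5, PLIN2 and PPARGC1A, against 8.34% of all. The core of the sterol regulatory element (TCACNCCAC) was in 0 of 42 windows, against 1.13% of all, and the direct repeat bound by PPAR receptors (AGGTCANAGGTCA) in 0 of 42, against 0.0225% of all. Its half-site alone (AGGTCA, part of the repeat) was in 4.76% of the members' windows, those of ACACA and ELOVL6, against 11.9% of all.

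The clearest differences lay between the cultures kept at 25 mM and those kept at 5 mM, where many other genes differed too. At 25 mM against 5 mM, 40.0% of synthesis, 16.7% of storage and 60.0% of oxidation genes were called, against 39.1% of all genes. At 25 to 50 mM against 5 to 50 mM these shares were 50.0%, 50.0% and 73.3%, against 41.4%. The 2 fuel switch genes tested were called in each comparison. Inside the oxidation pathway the transcripts moved in both directions: the carnitine carrier SLC25A20, the very long-chain acyl-CoA dehydrogenase ACADVL, ETFA and ETFDH were higher in cells kept at 25 mM, while both CPT1 genes and the medium-chain dehydrogenase were lower. Most called genes of synthesis and storage were lower, with DGAT2 at 0.392 of its 5 mM level on the fitted scale. The 24 h rise to 50 mM gave no call among these genes from either starting glucose.

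**Figure D1:**
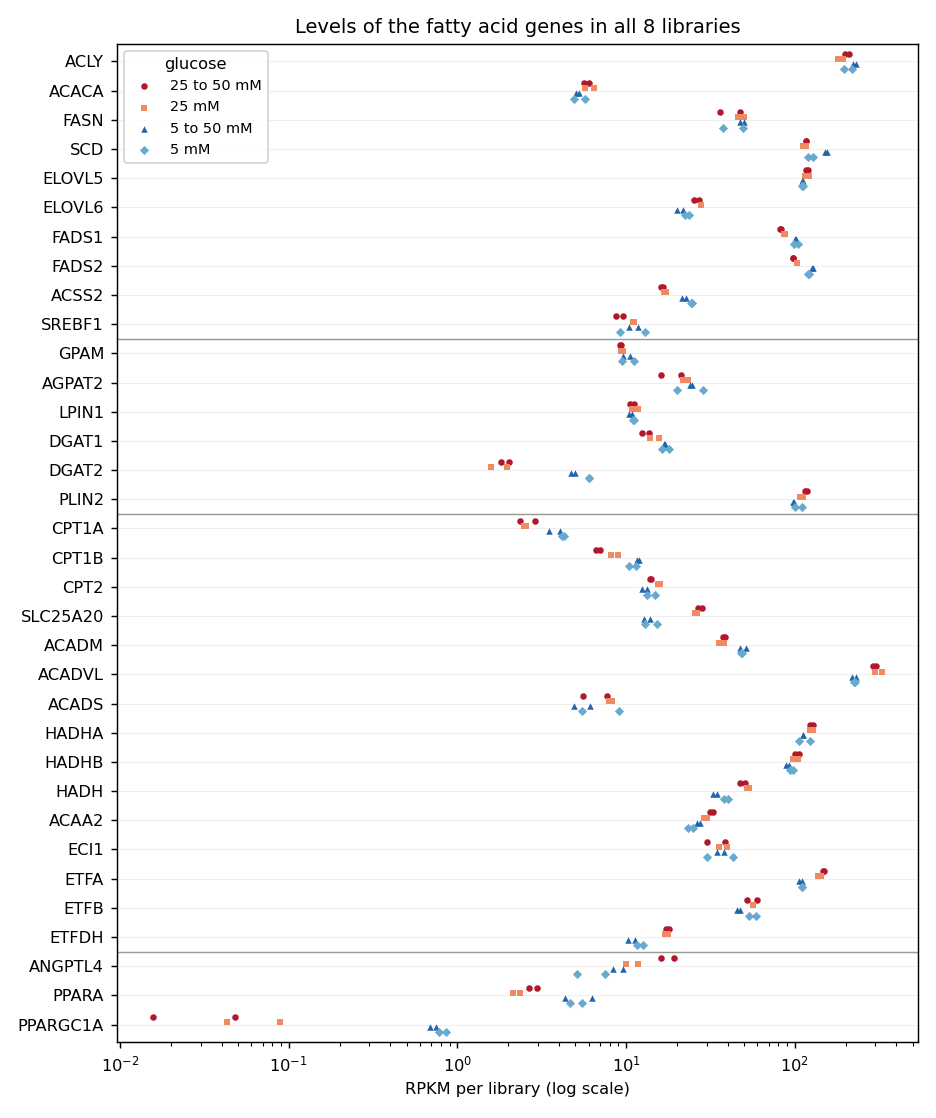
RPKM of the fatty acid genes in each of the 8 libraries on a log axis, 1 line per gene, with synthesis, storage, oxidation and fuel switch genes in blocks from top to bottom. Red circles are 25 to 50 mM, orange squares 25 mM, dark blue triangles 5 to 50 mM and light blue diamonds 5 mM; PDK4, with 1 read in all, is not drawn. ACADVL and ACLY had the highest levels, and red and orange points stand apart from blue ones for SLC25A20, DGAT2, PPARA and PPARGC1A.

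A gene was tested where 2 or more fitted libraries held at least 1 RPKM, which 33 of the 35 members did and PDK4 and PPARGC1A did not. Differences are those of log2(RPKM + 1), which understates changes of low genes, tested two-sided with limma and adjusted over all genes tested, with a threshold of 0.05. At 25 mM against 5 mM, 8 members were higher and 8 lower of 33, a share of 48.5% where limma called 39.1% of all 11941 genes tested. At 25 to 50 mM against 5 to 50 mM, 11 members were higher and 10 lower, 63.6% where limma called 41.4% of all genes. So many genes differed between these stocks that the first count is close to the background, and the second lies above it without a test of that excess. All 16 members called in the first comparison were called in the same direction in the second, which is 100% of the first list and 76.2% of the second. The comparisons use different libraries of the same stocks, fitted with a shared spread. How many calls over all genes were repeated was not counted, so the overlap is not read as particular to the members.

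**Figure D2:**
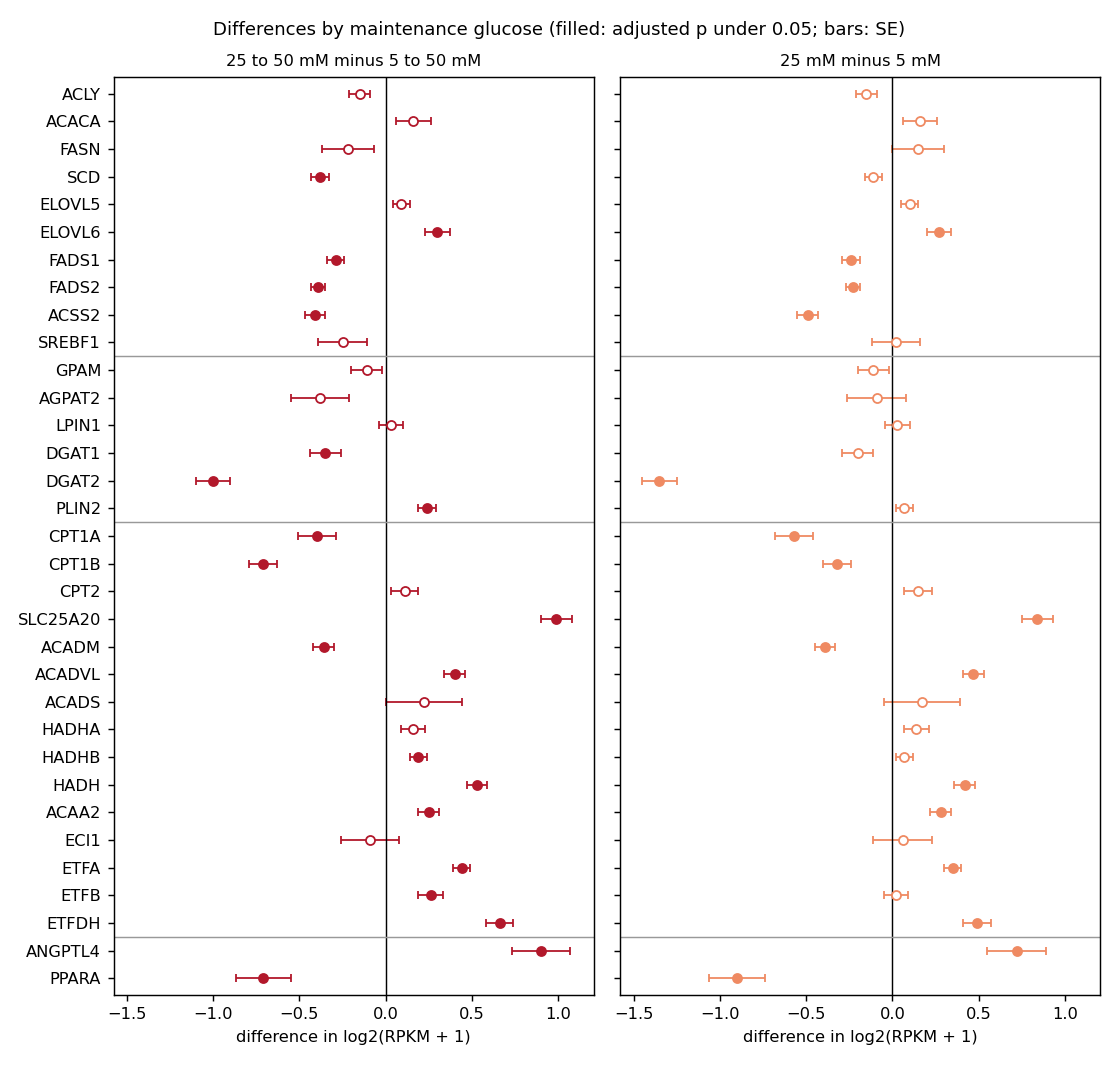
Fitted difference in log2(RPKM + 1) for each tested member, 25 to 50 mM minus 5 to 50 mM on the left and 25 mM minus 5 mM on the right; bars are standard errors and filled points have a limma adjusted p under 0.05. SLC25A20 and ANGPTL4 lie far to the right and DGAT2 and PPARA far to the left in both panels.

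Among the synthesis genes, ELOVL6 was higher in cells kept at 25 mM while FADS1, FADS2 and ACSS2 were lower. So 1 of 10 was higher and 3 lower at 25 mM against 5 mM, where 17.0% of all genes were higher and 22.1% lower. SCD joined the lower genes at 25 to 50 mM against 5 to 50 mM, making 1 higher and 4 lower. Over all genes the shares there were 18.1% higher and 23.3% lower. The median log2 difference of the 10 genes was -0.04 at 25 mM against 5 mM, with -0.00 over all genes, and -0.24 at 25 to 50 mM against 5 to 50 mM, with -0.02 over all genes; a correction for GC content, chosen after seeing the data, took the -0.24 to -0.06. ACSS2, which makes acetyl-CoA from acetate, had 16.0 and 16.7 RPKM at 25 to 50 mM against 21.3 and 22.6 RPKM at 5 to 50 mM. Left at their own glucose, the groups had 16.9 and 17.3 RPKM at 25 mM against 24.6 and 24.1 RPKM at 5 mM. All 4 libraries kept at 25 mM were below all 4 kept at 5 mM, and ACSS2 fell at 25 mM against 5 mM by 0.49 on the log2 scale (SE 0.06, limma adjusted p = 0.000676).

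FADS1 and FADS2, the delta-5 and delta-6 desaturases that make polyunsaturated fatty acids, were lower together. FADS2 had 98.0 and 96.9 RPKM at 25 to 50 mM against 128.7 and 126.8 RPKM at 5 to 50 mM. Without the rise it had 103.2 and 102.3 RPKM at 25 mM against 121.8 and 119.2 RPKM at 5 mM. FADS1 had 82.5 and 81.7 RPKM at 25 to 50 mM against 101.1 and 99.7 RPKM at 5 to 50 mM. The groups not raised had 85.9 and 87.4 RPKM at 25 mM against 99.5 and 105 RPKM at 5 mM. For both genes the libraries of the compared groups did not overlap. The log2 difference at 25 to 50 mM against 5 to 50 mM was -0.39 (SE 0.04, limma adjusted p = 0.000259) for FADS2 and -0.29 (SE 0.05, limma adjusted p = 0.00194) for FADS1. The genes overlap on opposite strands of chromosome 11, with starts 800 bases apart, and whether the authors' counting used strand is not given in the sources used here, so reads from the overlap cannot be told apart. The ratio of FADS2 to FADS1 RPKM was 1.19 and 1.19 at 25 to 50 mM, 1.20 and 1.17 at 25 mM, 1.27 and 1.27 at 5 to 50 mM and 1.22 and 1.13 at 5 mM.

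SCD (Entrez Gene 6319, chromosome 10, 100347233 to 100364826), the stearoyl-CoA desaturase that makes monounsaturated fatty acids, was called between the maintenance groups at 50 mM and not between those left at their own glucose. It had 116.6 and 116.6 RPKM at 25 to 50 mM against 154.2 and 150.5 RPKM at 5 to 50 mM. In cells left at their own glucose it had 116.6 and 112.3 RPKM at 25 mM against 128 and 119.3 RPKM at 5 mM. The cells kept at 5 mM were thus highest after the rise, and the other 3 groups lay within 112.3 to 128 RPKM. The log2 difference was -0.38 (SE 0.05, limma adjusted p = 0.000718) at 25 to 50 mM against 5 to 50 mM and -0.11 (SE 0.05, limma adjusted p = 0.118) at 25 mM against 5 mM; the test of the difference between these, which equals that between the rises, gave 0.27 for the rise from 5 mM minus the rise from 25 mM (SE 0.07, unadjusted p = 0.00505, limma adjusted p = 0.534) and made no call.

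ELOVL6, which elongates palmitate to stearate, ran the other way. It had 25.1 and 26.9 RPKM at 25 to 50 mM against 21.7 and 20.01 RPKM at 5 to 50 mM. In the groups without the rise, the values were 27.7 and 27.9 RPKM at 25 mM against 23.5 and 22.4 RPKM at 5 mM. The fitted difference was 0.27 at 25 mM against 5 mM (SE 0.07, limma adjusted p = 0.0162), and this call was lost without replicate 1 or replicate 3 at 25 mM or replicate 3 at 5 mM (limma adjusted p from 0.0533 to 0.0752). At 25 to 50 mM against 5 to 50 mM it was 0.30 (SE 0.07, limma adjusted p = 0.00858), lost without replicate 3 at 25 to 50 mM or replicate 2 at 5 to 50 mM (0.0628 and 0.0725).

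The first enzymes of the pathway and SREBF1 gave no call in any comparison with all libraries. FASN, the fatty acid synthase, had 47.2 and 36.2 RPKM at 25 to 50 mM against 49.8 and 47.2 RPKM at 5 to 50 mM. Cells that stayed at their glucose had 50.1 and 45.7 RPKM at 25 mM against 37.8 and 49.2 RPKM at 5 mM. SREBF1, which encodes the transcription factor SREBP1 that drives many of these genes, had 9.57 and 8.65 RPKM at 25 to 50 mM against 11.7 and 10.4 RPKM at 5 to 50 mM. Left at their own glucose, the groups had 10.97 and 11.2 RPKM at 25 mM against 9.16 and 12.9 RPKM at 5 mM. For both genes the replicates at 5 mM lay so far apart that they enclosed the libraries at 25 mM in the case of SREBF1 and overlapped them in the case of FASN. ACLY, which splits citrate to acetyl-CoA, ranged from 180.4 to 230.2 RPKM over the 8 libraries, ACACA, acetyl-CoA carboxylase, from 4.94 to 6.41 RPKM, and ELOVL5, an elongase of polyunsaturated fatty acids, from 110.7 to 121.9 RPKM.

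Of the 6 storage genes only DGAT2 passed at 25 mM against 5 mM, where it was lower. DGAT2, DGAT1 and PLIN2 passed at 25 to 50 mM against 5 to 50 mM, where 1 was higher and 2 lower. These shares were 16.7% and 50.0%, where 39.1% and 41.4% of all genes were called. The median log2 difference of the storage genes was -0.10 in the first comparison and -0.23 in the second. The latter was -0.11 after the GC correction. DGAT2 (Entrez Gene 84649, chromosome 11, 75768778 to 75801534), one of the enzymes of the last step of triglyceride synthesis, had 1.81 and 2.02 RPKM at 25 to 50 mM against 4.70 and 4.98 RPKM at 5 to 50 mM. Without the rise it had 1.57 and 1.96 RPKM at 25 mM against 6.05 and 6.04 RPKM at 5 mM. The lowest library kept at 5 mM was above the highest kept at 25 mM. The log2 difference was -1.35 at 25 mM against 5 mM (SE 0.10, limma adjusted p = 4.71e-05) and -1.0 at 25 to 50 mM against 5 to 50 mM (SE 0.10, limma adjusted p = 0.000191), and both calls held in every repeat that tested it; a filter at a mean of 5 RPKM left it untested.

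DGAT1, the other enzyme of that step, had 13.7 and 12.4 RPKM at 25 to 50 mM against 16.7 and 17.0 RPKM at 5 to 50 mM. The groups not raised had 13.9 and 15.7 RPKM at 25 mM against 16.3 and 17.98 RPKM at 5 mM. Its log2 difference was -0.35 at 25 to 50 mM against 5 to 50 mM (SE 0.09, limma adjusted p = 0.0156), but a correction for GC content took it to -0.13 (limma adjusted p = 0.378), and it was also lost without replicate 3 at 25 to 50 mM or either library at 5 to 50 mM (limma adjusted p from 0.0704 to 0.0966). PLIN2, the coat protein of lipid droplets, was the storage gene that was higher, with 115.3 and 118.3 RPKM at 25 to 50 mM against 99.0 and 98.1 RPKM at 5 to 50 mM. At 25 mM it had 108 and 112 RPKM against 109.9 and 100.0 RPKM at 5 mM, which overlap. The difference at 25 to 50 mM against 5 to 50 mM was 0.24 on the log2 scale (SE 0.05, limma adjusted p = 0.00963), lost without replicate 3 at 25 to 50 mM or either library at 5 to 50 mM (limma adjusted p from 0.0524 to 0.0614).

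AGPAT2, which makes phosphatidic acid, had 21.1 and 16.1 RPKM at 25 to 50 mM against 24.7 and 23.9 RPKM at 5 to 50 mM. In cells left at their own glucose it had 21.8 and 23.2 RPKM at 25 mM against 20.1 and 28.6 RPKM at 5 mM, with no call. GPAM, the mitochondrial acyltransferase of the first step, and LPIN1, the phosphatidate phosphatase lipin 1, stayed within 9.16 to 11.2 RPKM and 10.4 to 11.8 RPKM over the 8 libraries and gave no call.

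Of the 15 oxidation genes, 6 were higher and 3 lower at 25 mM against 5 mM, where 17.0% of all genes were higher and 22.1% lower. At 25 to 50 mM against 5 to 50 mM, 8 were higher and 3 lower, with 18.1% and 23.3% over all genes. Their median log2 difference was 0.15 in the first comparison and 0.22 in the second. Among the genes of entry into mitochondria, the carrier was higher while the CPT1 genes were lower. SLC25A20 (Entrez Gene 788, chromosome 3, 48856926 to 48898882), the carnitine-acylcarnitine carrier of the inner membrane, had 26.7 and 28.3 RPKM at 25 to 50 mM against 12.8 and 13.9 RPKM at 5 to 50 mM. In the groups without the rise, the values were 26.4 and 25.6 RPKM at 25 mM against 13.02 and 15.3 RPKM at 5 mM. No library kept at 25 mM was below 25.6 RPKM and none kept at 5 mM was above 15.3 RPKM. The difference was 0.99 on the log2 scale at 25 to 50 mM against 5 to 50 mM (SE 0.09, limma adjusted p = 0.000111) and 0.84 at 25 mM against 5 mM (SE 0.09, limma adjusted p = 0.000266), called in every repeat.

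CPT1A and CPT1B, the liver and muscle forms of the enzyme that attaches fatty acids to carnitine at the outer membrane, were both lower in cells kept at 25 mM. CPT1A had 2.35 and 2.87 RPKM at 25 to 50 mM against 3.47 and 4.03 RPKM at 5 to 50 mM. Cells that stayed at their glucose had 2.56 and 2.48 RPKM at 25 mM against 4.25 and 4.17 RPKM at 5 mM. CPT1B had 6.98 and 6.65 RPKM at 25 to 50 mM against 11.7 and 11.9 RPKM at 5 to 50 mM. Left at their own glucose, the groups had 8.13 and 8.98 RPKM at 25 mM against 10.4 and 11.4 RPKM at 5 mM. In every group and library CPT1B was the higher of the pair per kilobase, with a ratio between 2.32 and 3.62. The log2 difference of CPT1A was -0.57 at 25 mM against 5 mM (SE 0.11, limma adjusted p = 0.00437) and -0.40 at 25 to 50 mM against 5 to 50 mM (SE 0.11, limma adjusted p = 0.0188). That of CPT1B was -0.71 at 25 to 50 mM against 5 to 50 mM (SE 0.08, limma adjusted p = 0.000412) and -0.32 at 25 mM against 5 mM (SE 0.08, limma adjusted p = 0.0182). Quantile normalization ended the call of CPT1A in both comparisons, with differences of -0.36 and -0.12 (limma adjusted p = 0.0561 and 0.473), and the call of CPT1B at 25 mM against 5 mM (-0.23, limma adjusted p = 0.0525), which a fit on the 4 libraries compared also ended (limma adjusted p = 0.0698); without replicate 2 at 25 to 50 mM or replicate 2 at 5 to 50 mM the call of CPT1A between those groups was lost too (limma adjusted p = 0.109 and 0.124), as was that of CPT1B at 25 mM against 5 mM without replicate 1 at 25 mM or replicate 3 at 5 mM (0.113 and 0.0703). CPT2, which takes the fatty acid off carnitine inside, ranged from 12.4 to 15.8 RPKM and gave no call.

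**Figure D3:**
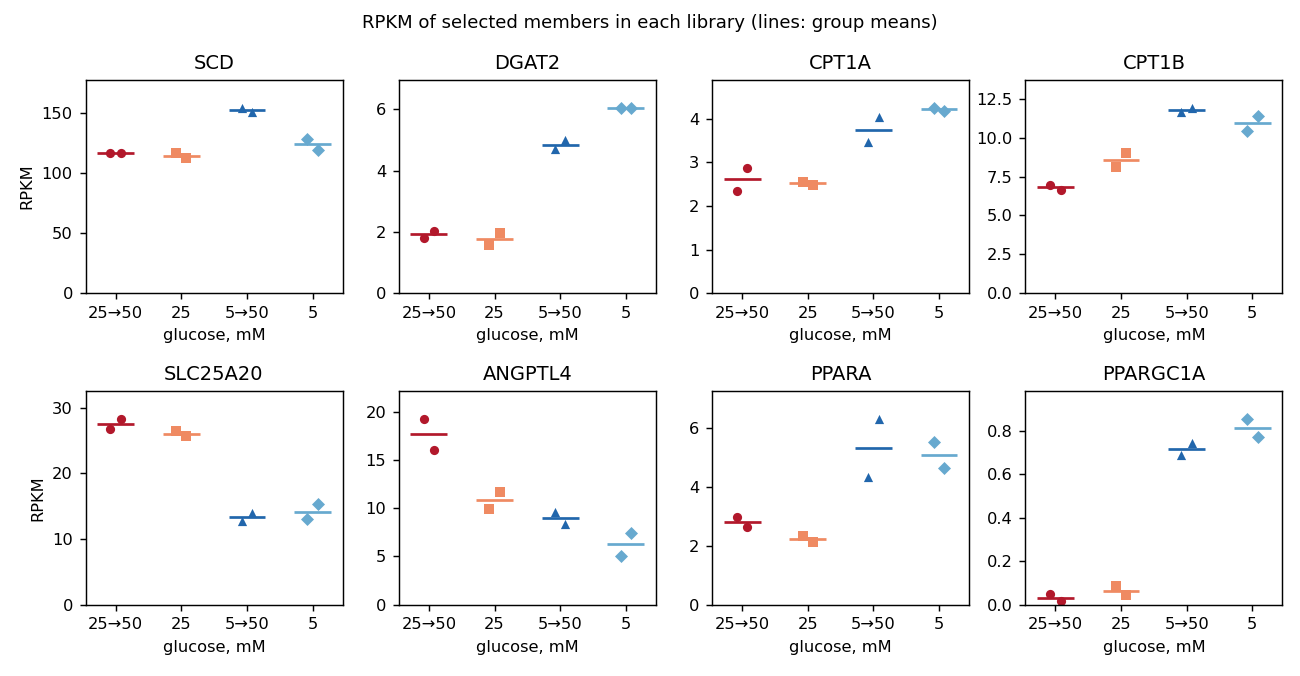
RPKM of 8 members in each library on linear axes that start at 0, with groups in the order 25 to 50 mM, 25 mM, 5 to 50 mM and 5 mM; points are libraries and lines are group means. SLC25A20 was at 25.6 RPKM or more in all 4 libraries kept at 25 mM, DGAT2, CPT1A, CPT1B, PPARA and PPARGC1A were lower there, and ANGPTL4 was highest at 25 to 50 mM.

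The acyl-CoA dehydrogenases, which start each round of oxidation, differed in direction. ACADVL, for very long chains, had 301.3 and 290.2 RPKM at 25 to 50 mM against 229.4 and 218.5 RPKM at 5 to 50 mM. Without the rise it had 298.6 and 328.6 RPKM at 25 mM against 225.3 and 226.8 RPKM at 5 mM. ACADM, for medium chains, had 37.5 and 38.5 RPKM at 25 to 50 mM against 47.0 and 51.1 RPKM at 5 to 50 mM. The groups not raised had 35.6 and 38.0 RPKM at 25 mM against 48.9 and 48.2 RPKM at 5 mM. ACADVL was thus above and ACADM below in all 4 libraries kept at 25 mM, and the ratio of their RPKM was 8.04 and 7.54 at 25 to 50 mM against 4.88 and 4.28 at 5 to 50 mM, and 8.39 and 8.64 at 25 mM against 4.60 and 4.70 at 5 mM. The log2 difference at 25 mM against 5 mM was 0.47 for ACADVL (SE 0.06, limma adjusted p = 0.000495) and -0.39 for ACADM (SE 0.06, limma adjusted p = 0.00182). At 25 to 50 mM against 5 to 50 mM it was 0.40 for ACADVL and -0.36 for ACADM (SE 0.06 each, limma adjusted p = 0.00102 and 0.00257). ACADVL overlaps DLG4 in the annotation, so its reads may include those of that gene. ACADS, for short chains, had 7.67 and 5.57 RPKM at 25 to 50 mM against 6.09 and 4.90 RPKM at 5 to 50 mM. In cells left at their own glucose it had 7.94 and 8.22 RPKM at 25 mM against 5.45 and 9.06 RPKM at 5 mM, with no call.

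Of the enzymes of the later steps, HADH and ACAA2 were higher in cells kept at 25 mM. HADH, the hydroxyacyl-CoA dehydrogenase of shorter chains, had 50.5 and 47.4 RPKM at 25 to 50 mM against 34.4 and 32.9 RPKM at 5 to 50 mM. In the groups without the rise, the values were 51.9 and 53.3 RPKM at 25 mM against 40.2 and 37.9 RPKM at 5 mM. ACAA2, the mitochondrial thiolase, had 32.5 and 31.5 RPKM at 25 to 50 mM against 27.3 and 26.1 RPKM at 5 to 50 mM. Cells that stayed at their glucose had 28.9 and 30.2 RPKM at 25 mM against 25.0 and 23.4 RPKM at 5 mM. Neither gene had a library kept at 5 mM as high as one kept at 25 mM. The log2 difference of HADH was 0.53 at 25 to 50 mM against 5 to 50 mM (SE 0.06, limma adjusted p = 0.000339) and 0.42 at 25 mM against 5 mM (SE 0.06, limma adjusted p = 0.00108). That of ACAA2 was 0.25 (SE 0.06, limma adjusted p = 0.0132) and 0.28 (SE 0.06, limma adjusted p = 0.00915); its calls were lost without replicate 2 at 25 to 50 mM or replicate 2 at 5 to 50 mM in the first (limma adjusted p = 0.0719 and 0.0958) and without replicate 3 at 25 mM in the second (0.0626).

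HADHA and HADHB, the subunits of the trifunctional protein that handles long chains, are transcribed away from each other, and the ratio of HADHA to HADHB RPKM was between 1.12 and 1.27 in all 8 libraries. HADHB had 100.7 and 105.6 RPKM at 25 to 50 mM against 92.8 and 88.1 RPKM at 5 to 50 mM. Left at their own glucose, the groups had 97.6 and 103.9 RPKM at 25 mM against 97.5 and 93.9 RPKM at 5 mM. Its difference at 25 to 50 mM against 5 to 50 mM was 0.19 on the log2 scale (SE 0.05, limma adjusted p = 0.0274), a call that was lost without any 1 of the 4 libraries compared (limma adjusted p from 0.0503 to 0.166) and without trend (0.0529). HADHA ranged from 105.3 to 127.9 RPKM and ECI1, the enoyl-CoA isomerase needed for unsaturated chains, from 30.0 to 42.8 RPKM, and neither was called.

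The electron transfer flavoprotein takes up the electrons of the dehydrogenases. ETFA and ETFDH were higher in cells kept at 25 mM in both comparisons, and ETFB passed in one. ETFA, the alpha subunit, had 148.4 and 145.9 RPKM at 25 to 50 mM against 106.1 and 110.0 RPKM at 5 to 50 mM. Without the rise it had 136.8 and 143.5 RPKM at 25 mM against 109.9 and 109.9 RPKM at 5 mM. ETFDH, the membrane oxidoreductase that passes the electrons to ubiquinone, had 17.1 and 18.1 RPKM at 25 to 50 mM against 10.2 and 11.4 RPKM at 5 to 50 mM. The groups not raised had 17.1 and 17.6 RPKM at 25 mM against 11.6 and 12.6 RPKM at 5 mM. For both, every library kept at 25 mM was above every library kept at 5 mM. The log2 difference at 25 to 50 mM against 5 to 50 mM was 0.66 for ETFDH (SE 0.08, limma adjusted p = 0.000484) and 0.44 for ETFA (SE 0.05, limma adjusted p = 0.00022), and at 25 mM against 5 mM it was 0.49 (SE 0.08, limma adjusted p = 0.00222) and 0.35 (SE 0.05, limma adjusted p = 0.000768). ETFDH overlaps PPID in the annotation, as DGAT1 does HSF1 and SREBF1 does RAI1, with the same limit. ETFB, the beta subunit, had 59.3 and 52.1 RPKM at 25 to 50 mM against 45.6 and 47.2 RPKM at 5 to 50 mM. In cells left at their own glucose it had 56.5 and 56.7 RPKM at 25 mM against 53.2 and 58.7 RPKM at 5 mM. It was called only between the groups at 50 mM (0.26, SE 0.07, limma adjusted p = 0.0272), and not without replicate 2 at 25 to 50 mM, replicate 1 at 25 mM, or either library at 5 to 50 mM (limma adjusted p from 0.0501 to 0.148).

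The fuel switch genes stood apart in opposite directions. ANGPTL4 (Entrez Gene 51129, chromosome 19, 8364155 to 8374370), a secreted inhibitor of lipoprotein lipase and a known target of PPAR receptors, had 19.2 and 16.0 RPKM at 25 to 50 mM against 9.58 and 8.39 RPKM at 5 to 50 mM. In the groups without the rise, the values were 9.95 and 11.7 RPKM at 25 mM against 5.10 and 7.45 RPKM at 5 mM. PPARA (Entrez Gene 5465, chromosome 22, 46150526 to 46243756), the nuclear receptor that drives oxidation genes, had 2.98 and 2.65 RPKM at 25 to 50 mM against 4.32 and 6.30 RPKM at 5 to 50 mM. Cells that stayed at their glucose had 2.35 and 2.15 RPKM at 25 mM against 5.51 and 4.62 RPKM at 5 mM. ANGPTL4 was thus higher and PPARA lower in all 4 libraries kept at 25 mM. The log2 difference of ANGPTL4 was 0.90 at 25 to 50 mM against 5 to 50 mM (SE 0.17, limma adjusted p = 0.004) and 0.72 at 25 mM against 5 mM (SE 0.17, limma adjusted p = 0.0117), where it was lost without replicate 3 at 25 mM (0.0804). That of PPARA was -0.90 at 25 mM against 5 mM (SE 0.16, limma adjusted p = 0.00309) and -0.71 at 25 to 50 mM against 5 to 50 mM (SE 0.16, limma adjusted p = 0.00847), where quantile normalization took it to -0.46 (limma adjusted p = 0.0634) and leaving out replicate 3 at 25 to 50 mM gave a limma adjusted p of 0.0521.

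PPARGC1A (Entrez Gene 10891, chromosome 4, 23792021 to 24472905), the coactivator PGC-1 alpha of PPARA and of mitochondrial genes, was too low for the filter but had reads in every library. It had 3 and 1 reads at 25 to 50 mM against 41 and 44 reads at 5 to 50 mM, and 6 and 3 reads at 25 mM against 47 and 54 reads at 5 mM. Few reads were thus left in cells kept at 25 mM, before and after the rise. Per read of the library total, the ratio was 0.081 at 25 mM against 5 mM (exact 95% interval 0.036 to 0.16) and 0.0442 at 25 to 50 mM against 5 to 50 mM (0.0118 to 0.117), intervals that cover counting error only. Fitted without the filter, the log2 difference was -0.77 (SE 0.04, limma adjusted p = 0.000112) and -0.73 (SE 0.04, limma adjusted p = 0.000109), a scale on which so low a gene is compressed. PDK4, a kinase that shuts off pyruvate dehydrogenase when fat is burnt, had 1 read in the 8 libraries together, at 25 mM, and was at 0 in 7 of 8 (exact 95% interval 0.0253 to 5.57 reads in all), so it could not be compared at this depth.

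Across these genes, 10 of 33 (30.3%) had all 4 libraries kept at 25 mM above all 4 kept at 5 mM, against 21.9% of all genes tested, and 10 of 33 (30.3%) had them below, against 26.5%. Other genes moved with maintenance glucose as well. The summed level of 6 replication-dependent histone genes was 61.8 to 63.1 RPKM at 25 to 50 mM against 438 to 452 RPKM at 5 to 50 mM, and 46.0 to 51.1 RPKM at 25 mM against 285 to 352 RPKM at 5 mM, with all 6 called lower in both. The summed cardiomyocyte markers were 1.81 to 2.25 RPKM at 25 to 50 mM against 5.45 to 6.05 RPKM at 5 to 50 mM, and 2.06 to 3.89 RPKM at 25 mM against 4.57 to 4.75 RPKM at 5 mM, most of it from NPPA. The part of these differences in the results on fatty acid genes was not tested.

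The comparison the study set out was between cells raised to 50 mM and cells left at their own glucose, and here limma called 0 of 33 members from either start. At 5 to 50 mM against 5 mM, 0.329% of all genes were called (0.312% higher, 0.0169% lower). Members with an unadjusted p under 0.05 were 2 that were higher and 3 that were lower, of 33. Over all 11849 genes, 611 that were higher and 635 that were lower reached it. At 25 to 50 mM against 25 mM, 0.00876% of all genes were called, all of it higher. Here 1 higher and 2 lower members of 33 had an unadjusted p under 0.05, as did 320 higher and 737 lower of all 11422 genes. The voom test on recovered whole reads also called 0 members in both. The median log2 difference of the members was -0.03 from each start, as it was over all genes. The 95% intervals differed in width, with a median of 0.33 log2 units from 25 mM and 0.42 from 5 mM. At 5 to 50 mM against 5 mM they ran from -0.13 to 0.13 for ELOVL5, the narrowest, and from -0.89 to 0.25 for ACADS, the widest.

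**Figure D4:**
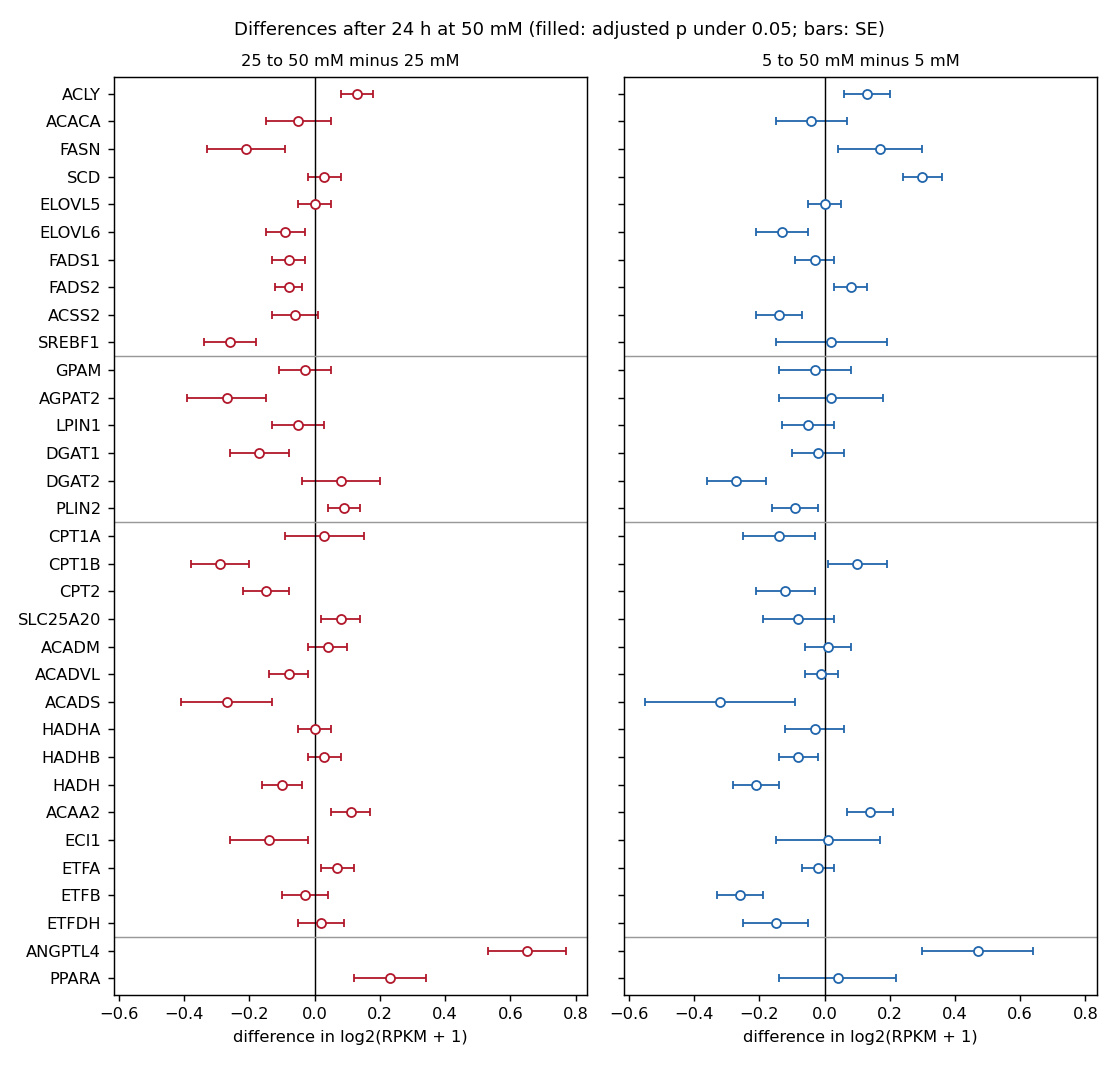
Fitted difference in log2(RPKM + 1) for each tested member after 24 h at 50 mM, 25 to 50 mM minus 25 mM on the left and 5 to 50 mM minus 5 mM on the right; bars are standard errors and no point is filled, since no limma adjusted p was under 0.05. ANGPTL4 lies farthest from 0 in both panels, and SCD lies to the right from 5 mM only.

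ANGPTL4 had the largest difference of any member from both starts. Set out by rise, its 19.2 and 16.0 RPKM at 25 to 50 mM stood against 9.95 and 11.7 RPKM at 25 mM, and its 9.58 and 8.39 RPKM at 5 to 50 mM against 5.10 and 7.45 RPKM at 5 mM. The libraries of each pair did not overlap, with log2 differences of 0.65 (SE 0.12, unadjusted p = 0.00112, limma adjusted p = 0.364) and 0.47 (SE 0.17, unadjusted p = 0.0385, limma adjusted p = 0.439). After the GC correction limma called it in both, at 0.83 (SE 0.07, adjusted p = 0.0321) and 0.49 (SE 0.08, adjusted p = 0.0469). It was also called from 25 mM without replicate 2 at 25 to 50 mM (0.53, limma adjusted p = 0.0288) and from 5 mM without replicate 3 at 5 mM (0.71, limma adjusted p = 0.0263). These leave-outs rest on an arm of 1 library, assumed to vary like the others, and the other 3 for each rise gave no call: the differences were 0.55 to 0.78 from 25 mM (limma adjusted p from 0.186 to 0.976) and 0.24 to 0.56 from 5 mM (limma adjusted p from 0.221 to 1).

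SCD was the synthesis gene with the largest difference from 5 mM, 0.30 on the log2 scale (SE 0.06, unadjusted p = 0.00311, limma adjusted p = 0.196), and its difference from 25 mM was 0.03 (SE 0.05, limma adjusted p = 0.86). In a fit of all 8 libraries the first had a limma adjusted p of 0.0435, after the GC correction 0.0449 (0.32), and without replicate 1 or replicate 3 at 5 mM 0.0185 and 0.0347 (0.35 and 0.25). Without either library at 5 to 50 mM it was not called (0.28 and 0.32, limma adjusted p = 1 each). From 25 mM, the largest differences in the other roles were -0.26 for SREBF1 (SE 0.08), -0.27 for AGPAT2 (SE 0.12) and -0.29 for CPT1B (SE 0.09), with limma adjusted p between 0.502 and 0.543. After the GC correction SREBF1 was at -0.09 and AGPAT2 at -0.03, and AGPAT2 was at -0.09 without replicate 3 at 25 to 50 mM and at -0.46 without replicate 2. From 5 mM they were -0.27 for DGAT2 (SE 0.09, limma adjusted p = 0.406) and -0.32 for ACADS (SE 0.23, limma adjusted p = 0.707). The ACADS value rested on replicate 3 at 5 mM: without that library it was 0.00.

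Libraries not overlapping in the same direction from both starts were found for 3 of 33 members that were higher, ACAA2, ACLY and ANGPTL4 (9.09%, against 5.73% of all genes), and for 3 that were lower, ACSS2, ELOVL6 and HADH (9.09%, against 10.4%). The test of the difference between the rises called 0 members, with 0.0251% of all genes called (0.0167% higher, 0.00837% lower). With voom, 0 genes were called. An unadjusted p under 0.05 in limma was reached by 447 higher and 274 lower of all 11941 genes. Among the 33 members, 3 that were higher and 1 that was lower reached it. The largest of these, the rise from 5 mM minus the rise from 25 mM, were 0.39 for CPT1B (SE 0.12, limma adjusted p = 0.602) and -0.35 for DGAT2 (SE 0.14, limma adjusted p = 0.804).

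The spread between replicates was not even across these genes. At 5 mM and at 25 to 50 mM several members with GC-rich transcripts differed most between replicates, while PPARA, with a GC content of 54.5%, differed most at 5 to 50 mM. Across 9598 genes the difference of the replicates correlated with GC content at r = -0.499 at 25 to 50 mM, 0.018 at 25 mM, -0.169 at 5 to 50 mM and 0.592 at 5 mM, a description over genes that are not independent. At 5 mM, replicate 3 minus replicate 1 was 0.64 for ACADS, 0.49 for AGPAT2 and for ECI1, 0.47 for ANGPTL4, 0.45 for SREBF1 and 0.37 for FASN on the log2 scale, all with GC contents of 63.7% to 65.9%. At 25 to 50 mM, replicate 3 minus replicate 2 was -0.40 for ACADS, -0.37 for AGPAT2 and for FASN, and -0.35 for ECI1. Without replicate 2 at 25 to 50 mM, limma called FASN (-0.39), AGPAT2 (-0.46) and ACADS (-0.47) lower than at 25 mM. Without replicate 3 at 5 mM it called FASN higher at 5 to 50 mM than at 5 mM (0.35), and without replicate 1 at 5 mM it called ACADS (-0.64) and ETFB (-0.33) lower and ACLY (0.21) higher. For FASN, AGPAT2 and ACADS a call after the rise thus depended on which libraries were kept.

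**Figure D5:**
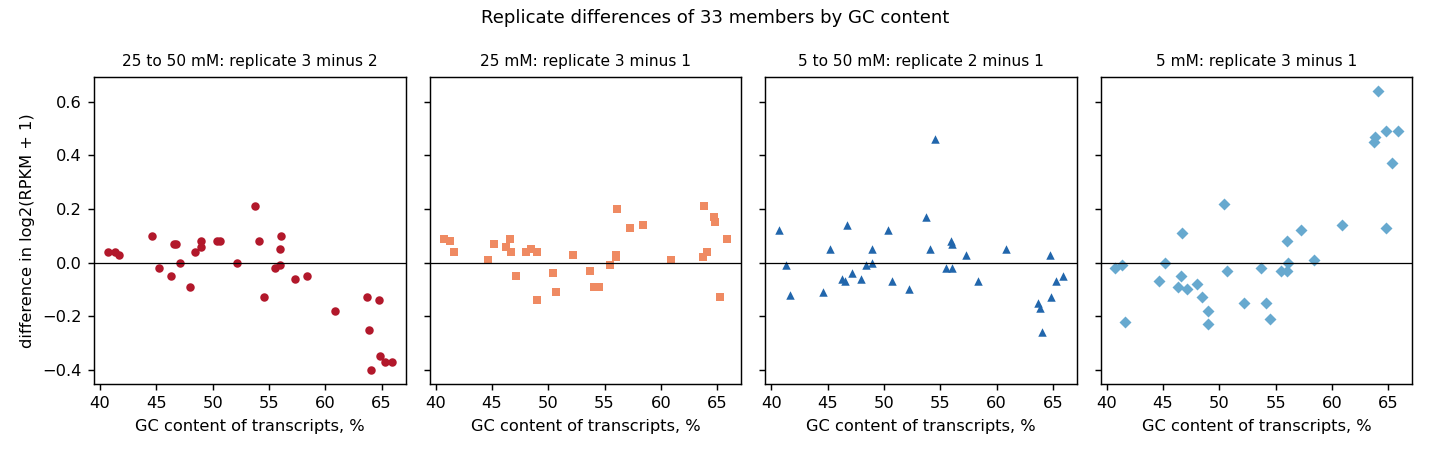
Difference in log2(RPKM + 1) between the replicates of each group for the 33 tested members, against the GC content of the transcripts in percent. At 5 mM the members of highest GC content lie up to 0.64 above 0, at 25 to 50 mM down to -0.40 below it, and at 25 mM and 5 to 50 mM nearly all stay closer to 0.

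Further genes of fatty acid metabolism were counted in 7 lists. The share called per list lay between 30.0% and 66.7% over both maintenance comparisons, on either side of the 39.1% and 41.4% of all genes. By direction, 17.0% of all genes were higher and 22.1% lower at 25 mM against 5 mM. These shares were 18.1% and 23.3% at 25 to 50 mM against 5 to 50 mM. Of 10 tested genes of uptake and activation, 0 were higher and 5 lower at 25 mM against 5 mM, and the same counts were found at 25 to 50 mM against 5 to 50 mM. FABP3, the heart form of the fatty acid binding proteins, had 3.37 and 1.84 RPKM at 25 to 50 mM against 20.8 and 20.98 RPKM at 5 to 50 mM. Left at their own glucose, the groups had 2.93 and 2.12 RPKM at 25 mM against 19.9 and 15.1 RPKM at 5 mM (log2 difference -2.63 and -2.39, limma adjusted p = 7.3e-05 and 0.000133). ACSL5, an acyl-CoA synthetase, differed by -0.95 and -1.01 (limma adjusted p = 0.000285 and 0.000229). It was at 0.49 to 0.86 RPKM in libraries kept at 25 mM and at 1.83 to 2.75 RPKM in those kept at 5 mM. ACSL5 thus passed the filter only through the cells kept at 5 mM, so a call in the other direction was hardly possible. Of 20 tested genes of other storage and lipolysis, 0 were higher and 8 lower at 25 mM against 5 mM, and 1 was higher and 9 lower at 25 to 50 mM against 5 to 50 mM. G0S2, an inhibitor of the triglyceride lipase ATGL, had 77.7 and 44.3 RPKM at 25 to 50 mM against 402.8 and 317.9 RPKM at 5 to 50 mM. Without the rise it had 63.3 and 75.7 RPKM at 25 mM against 259.7 and 489.1 RPKM at 5 mM (-2.59 and -2.35, limma adjusted p = 0.000689 and 0.00116). GPAT3, an acyltransferase of triglyceride synthesis, differed by -1.12 and -1.35 (limma adjusted p = 0.000209 and 9.06e-05). In each of these 4 genes all libraries kept at 25 mM were below all kept at 5 mM.

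Among 20 tested nuclear regulators, 4 were higher and 3 lower at 25 mM against 5 mM, and 4 higher and 2 lower at 25 to 50 mM against 5 to 50 mM. PPARG, the receptor that drives fat storage, had 2.13 and 2.05 RPKM at 25 to 50 mM against 6.84 and 7.83 RPKM at 5 to 50 mM. The groups not raised had 2.01 and 1.88 RPKM at 25 mM against 7.45 and 7.63 RPKM at 5 mM (log2 difference -1.43 and -1.54, limma adjusted p = 2.01e-05 and 1.72e-05). Of 6 tested genes of pyruvate dehydrogenase control and uncoupling, 1 was higher and 3 lower in both; PDK3 differed by -1.18 and -1.03 (limma adjusted p = 0.000136 and 0.000271). Other mitochondrial oxidation gave 4 higher and 4 lower of 19 at 25 mM against 5 mM and 4 higher and 5 lower at 25 to 50 mM against 5 to 50 mM, peroxisomal oxidation 2 higher and 5 lower of 15 and then 2 higher and 3 lower, and other synthesis 5 higher and 8 lower of 23 and then 5 higher and 9 lower. All genes gave 17.0% higher and 22.1% lower, and then 18.1% and 23.3%. The lower counts include ACOX2 (peroxisomal) and ACACB and ELOVL3 (synthesis), which were under 1 RPKM in every library kept at 25 mM. These genes passed the filter only through cells kept at 5 mM and could hardly be called higher. In the peroxisomal list PHYH, which oxidises phytanic acid, differed by -1.01 and -0.99 (limma adjusted p = 8.84e-05 and 0.000109). After the rise only ME1, the malic enzyme that makes NADPH for synthesis, was called in these lists: it had 50.0 and 48.2 RPKM at 5 to 50 mM against 30.7 and 31.6 RPKM at 5 mM, a log2 difference of 0.64 (SE 0.06, limma adjusted p = 0.0411). The call of ME1 was lost without the filter (limma adjusted p = 0.114), without trend (0.0876) and without either library at 5 to 50 mM (0.319 and 0.317). ME1 had 37.3 and 38.4 RPKM at 25 to 50 mM against 38.9 and 42.6 RPKM at 25 mM, where the difference was -0.10 (SE 0.06, limma adjusted p = 0.616). The difference between these rises was 0.74 (SE 0.09, limma adjusted p = 0.105) and did not pass.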

How the data were processed

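Total RNA of 8 AC16 libraries was sequenced, 2 per group. The authors deposited RPKM values in 2 tables, one for each maintenance glucose, each with 19479 genes. The submitters' processing notes name STAR and hg38, and the counting tool, strand use and annotation are not given in the sources used here. The tables were joined on gene number. RefSeq (GRCh38.p14) gave coordinates and promoter windows, and GENCODE transcripts gave GC content. Whole reads were recovered from the RPKM steps: 100% of 16297 genes above 0 came out whole within 0.01 reads, and these reads give the depth, the counts of low genes and a voom test.

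Values were taken as log2(RPKM + 1), filtered at 1 RPKM in at least 2 fitted libraries, and tested with limma 3.58.1 (R 4.3.3) with a mean-variance trend and Benjamini-Hochberg adjustment over all genes tested. Each rise was fitted on its own 4 libraries; comparisons across maintenance glucose and the difference between rises were fitted on all 8, whose upper quartiles differed by 1.065 times. The procedure was tested on simulated data. Alternatives were another pseudocount, other filters, scalings, voom, a replicate block, a GC correction added after seeing the data, and leaving out each library. The members, lists and naming rule (every called member, the largest difference of each role in each rise and in 25 mM against 5 mM, 10 genes in any case, and up to 6 called genes of other lists per comparison) were chosen with earlier results of these data known.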

Additional observations from a re-analysis of the deposited data

How the results depend on the processing

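In 18 repeats (8 leaving out a library, 10 other settings), the members called at 25 mM against 5 mM numbered 13 to 19 (16 as reported) and at 25 to 50 mM against 5 to 50 mM 14 to 25 (21 as reported). Of single calls, 11 of 16 held in every repeat that tested them in the first and 13 of 21 in the second, where a mean of at least 5 RPKM left CPT1A, DGAT2 and PPARA untested in both, and 0 changed sign. Over all genes these comparisons gave 3024 to 4769 and 3177 to 5733 calls when a library was left out. The balance of directions depended on scaling: 2032 higher and 2639 lower at 25 mM against 5 mM became 2648 and 2068 with quantile normalization and 3332 and 2577 with the GC correction, and 2164 and 2782 between the groups at 50 mM became 3081 and 2046, 3606 and 2569, and 2799 and 2377 with median centring. Members split 8 and 6, and 11 and 8, in the first, and 12 and 8, and 15 and 9, in the second, with quantile normalization and the GC correction.

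Each rise had 14 repeats. For the rise from 5 mM, the 39 genes called became 0 without the filter, without trend and with the replicate block, 60 with median centring, 61 with quantile normalization, 130 in a fit of all 8 libraries and 175 with the GC correction, and 0 to 805 without 1 library (805 without replicate 1 and 560 without replicate 3 at 5 mM); members called were 1 in the fit of all 8, 2 with the GC correction and 0 to 4 without 1 library. For the rise from 25 mM, the 1 gene called became 0 without the filter, without trend and with the block, 4 with median centring, 2 with quantile normalization, 7 with voom, 4 in the fit of all 8, 12 with the GC correction and 0 to 777 without 1 library (777 without replicate 2 at 25 to 50 mM); members called were 1 with the GC correction and 0 to 4 without 1 library. For the difference between the rises, in 17 repeats, the 3 genes called became 0 with a pseudocount of 0.1, with a mean of at least 5 RPKM, with voom and with the block, 1 without the filter and without trend, 5 with the GC correction and 0 to 6 without 1 library, and 0 members were called in any repeat. ACADS at 5 to 50 mM against 5 mM ranged from -0.64 without replicate 1 to 0.0 without replicate 3 at 5 mM. The cause of these shifts was not tested.

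The labels give replicate numbers no meaning, so the numbers are taken as names only. They are 2 and 3 at 25 to 50 mM, 1 and 3 at 25 mM, 1 and 2 at 5 to 50 mM and 1 and 3 at 5 mM. Why a number is missing from each group is not given in the labels. Deviations of same-numbered libraries correlated at 0.302 between 25 mM and 5 mM, over 9611 genes. Between the other groups that share a number the correlations were -0.756 to -0.226. With 2 libraries per group the deviations mirror each other and each pair of groups gives a single value. These correlations therefore cannot decide whether the numbers mark pairs. A block over all 8 libraries left 2 residual degrees of freedom, 15 members called at 25 mM against 5 mM and 16 between the groups at 50 mM; it ended the call of CPT1B in the first (limma adjusted p = 0.0525) and of PLIN2, CPT1A, HADHB, ACAA2 and ETFB in the second (0.0505 to 0.106), and of ME1 after the rise from 5 mM (0.108). Genes with 3 reads or fewer in both groups could not be compared at this depth.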
